A study of Mus musculus with 12 samples.

Results

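A set of 10 genes of the circadian clock was followed in mouse monocytes of blood and spleen, with and without a liver resection. The set held the period genes Per1, Per2 and Per3, the cryptochrome genes Cry1 and Cry2, the REV-ERB genes Nr1d1 and Nr1d2, the output factors Dbp and Tef, and Clock itself. They were a list of named clock genes, drawn up with earlier results of these data known and matched by symbol among 52553 features in the tables. All 10 were among the 20135 features that passed the filter on low counts. RNA sequencing had been run on CD115+ monocytes of male C57BL/6 mice, taken from peripheral blood or spleen by density gradient and magnetic beads against CD115, the receptor encoded by Csf1r. The paper's methods also describe collagenase digestion and red cell lysis for spleen, and give neither step for blood. Tissue and preparation could therefore not be told apart in any value between blood and spleen. The 12 libraries formed 4 groups of 3: splenic monocytes of intact mice, splenic monocytes 24 h after resection of 70% of the liver, blood monocytes of intact mice, and blood monocytes 24 h after the same resection. Every library pooled cells of 5 mice, and the spleen had been left in place in all 4 groups. The comparison mice were labelled as having spleen and liver intact, not as sham-operated, so the resection could not be told apart from the anaesthesia and surgery that came with it. The same holds for meloxicam, which the paper's methods describe as pain relief before and after surgery. The mice were housed under a fixed light cycle and operated on in the morning. The hour at which intact mice were sampled was not given in the sources used here, so collection hour and resection could not be told apart in any value below.

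The clock is a transcriptional loop that runs in nearly all cells, monocytes included. CLOCK pairs with BMAL1 (encoded by Arntl) and binds E-boxes, short DNA motifs in the promoters of the period, cryptochrome and REV-ERB genes, and the PER and CRY proteins return to the nucleus to repress that pair. NR1D1 and NR1D2 (REV-ERB alpha and beta) repress Arntl through a second motif, the RORE, which the ROR activators also bind. DBP and TEF are activators of the PAR bZIP family that act at D-boxes, where NFIL3 represses. Because these genes peak at different hours of the day, a clock gene that differs between groups of mice can differ by the phase of the rhythm as well as by its level. Per1 also responds directly to glucocorticoid hormone and cAMP signals.

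A gene was called where its adjusted p was under 0.05 and its log2 fold change beyond 1 in edgeR's quasi-likelihood test. Sequences before the start site are shown for the 3 of 10 members called after resection in spleen, Nr1d1, Nr1d2 and Per1 (1.38% of all features were called there), and for 2 members called in no comparison, Cry1 and Per3, whose promoters held a pair of motif matches each. RefSeq promoters on GRCm38.p6 were found for 9 of the 10 members, all but Per2, in 13 windows that ran from 250 bases before to 50 bases after a start site. Each line gives the 250 bases before the start, read 5′ to 3′ on the strand of the gene. The Nr1d1 window lay on the minus strand at chr11:98775378-98775627, the Nr1d2 window on the minus strand at chr14:18239107-18239356, the upstream Per1 window on the plus strand at chr11:69098699-69098948, the Cry1 window on the minus strand at chr10:85185055-85185304 and the Per3 window on the minus strand at chr4:151044666-151044915. Capitals mark a match to a searched motif on either strand.
Nr1d1: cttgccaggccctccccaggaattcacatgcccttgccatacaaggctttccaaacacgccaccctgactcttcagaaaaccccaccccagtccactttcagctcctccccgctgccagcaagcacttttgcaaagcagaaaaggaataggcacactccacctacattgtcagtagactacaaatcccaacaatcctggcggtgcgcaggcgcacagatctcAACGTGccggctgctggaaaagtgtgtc
Nr1d2: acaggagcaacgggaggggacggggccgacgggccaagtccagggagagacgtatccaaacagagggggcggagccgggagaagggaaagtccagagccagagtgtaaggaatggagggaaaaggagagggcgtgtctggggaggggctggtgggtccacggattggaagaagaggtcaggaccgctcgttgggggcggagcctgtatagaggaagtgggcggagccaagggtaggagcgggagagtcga
Per1: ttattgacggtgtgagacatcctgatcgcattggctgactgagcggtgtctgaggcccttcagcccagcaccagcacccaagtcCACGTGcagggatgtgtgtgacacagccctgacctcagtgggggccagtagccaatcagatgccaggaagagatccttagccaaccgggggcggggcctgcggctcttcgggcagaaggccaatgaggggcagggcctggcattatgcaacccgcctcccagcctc
Cry1: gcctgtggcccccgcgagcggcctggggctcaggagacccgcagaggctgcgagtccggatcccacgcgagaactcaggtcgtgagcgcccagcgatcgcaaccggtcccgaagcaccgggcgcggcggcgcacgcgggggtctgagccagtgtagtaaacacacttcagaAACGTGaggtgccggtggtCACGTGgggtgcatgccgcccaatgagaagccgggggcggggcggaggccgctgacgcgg
Per3: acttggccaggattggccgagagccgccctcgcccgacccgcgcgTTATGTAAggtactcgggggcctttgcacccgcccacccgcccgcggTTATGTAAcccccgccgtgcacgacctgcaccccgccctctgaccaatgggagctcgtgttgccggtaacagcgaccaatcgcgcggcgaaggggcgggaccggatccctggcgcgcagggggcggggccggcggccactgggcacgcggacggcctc

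The motifs searched on both strands of the 300-base windows were the E-box CACGTG, its variant CACGTT, the D-box TTATGTAA, the RORE cores TAGGTCA and TGGGTCA, the cAMP response element TGACGTCA and the glucocorticoid response element, read as AGAACA and TGTTC with any 3 bases between them. None of the matches overlapped another. The E-box stood in 7.15% of 32851 promoters of this length in the mouse table and its variant in 4.68%. Among the 9 members with a window, the E-box was found for 3 (Per1, Cry1 and Tef) and the variant for 3 (Cry1, Cry2 and Nr1d1). These are counts of genes over 13 windows, several genes having more than 1, while the percentages are shares of single windows. For Per1 the E-box was in the upstream window only. Per2 had no window and was not searched. In Per1 the E-box began 166 bases before the start, in Cry1 60 bases before it, and in Nr1d1 the variant began 28 bases before the start on the opposite strand. The D-box, present in 0.938% of promoters, occurred in 1 member, Per3, at 205 and 158 bases before the start. No window of a member held the RORE cores (2.61% and 3.98% of promoters), the cAMP element (1.79%) or the glucocorticoid element (0.0487%), which says only that these letters were not in these windows. The Nr1d2, Dbp and Clock windows held no match to any motif searched.

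Levels are given as CPM, counts set to a library size of 1000000 and scaled by TMM, a factor per library that corrects for composition. They compare 1 gene between libraries, not genes with each other. Libraries held 36990033 to 46401368 estimated counts, and members ranged from 48 counts (the lowest library of Dbp) to 43936 (the highest of Per1). All 10 monocyte markers were present, with summed levels of 3165 to 3657 CPM in intact spleen, 3973 to 4556 CPM in spleen after resection, 3671 to 9440 CPM in intact blood and 12505 to 14445 CPM in blood after resection. The 10 did not all rise. In blood 7 had a positive log2 fold change after resection, and 3 were called higher and 2 lower, against 7.80% and 6.11% of all features. In spleen 6 were positive and 0 were called, against 1.38% of features. Other cells were present too. The 8 neutrophil markers summed to 47.7 to 134 CPM in intact blood and 1123 to 5341 CPM after resection, and to 328 to 750 CPM against 1784 to 5237 CPM in spleen. The 7 erythroid markers, haemoglobin included, summed to 711 to 3357 CPM in intact spleen, 7502 to 32685 CPM in spleen after resection, 124179 to 404889 CPM in intact blood and 217953 to 529499 CPM in blood after resection. Markers of T cells (6 of 7 in the tables) went the other way in blood, from 710 to 2263 CPM in intact mice to 126 to 253 CPM after resection, and the 5 NK cell markers went from 134 to 290 CPM to 27.7 to 75.2 CPM. In spleen both lists fell as well, T cell markers from 174 to 321 CPM to 79.1 to 110 CPM and NK cell markers from 62.1 to 128 CPM to 8.28 to 36.5 CPM. The 7 peritoneal macrophage markers summed to 3567 to 7226 CPM in intact blood and 18726 to 23800 CPM after resection, the 6 red pulp macrophage markers to 159 to 294 CPM and 1692 to 2225 CPM, and the 5 platelet markers to 77.4 to 282 CPM and 792 to 881 CPM. In spleen the 6 B cell markers went from 4055 to 4599 CPM to 1141 to 3508 CPM, the 5 plasma cell markers from 2189 to 3168 CPM to 4365 to 4994 CPM and the red pulp macrophage markers from 1124 to 1734 CPM to 2385 to 4143 CPM. In blood 8 neutrophil, 6 red pulp macrophage, 5 peritoneal macrophage and 1 platelet markers were called higher, against 7.80% of features. There 5 T cell and 0 NK cell markers were called lower, against 6.11%. For erythroid markers 0 were called in either tissue. In spleen 2 neutrophil and 1 red pulp macrophage markers were called higher and 1 NK cell marker lower, against 1.38% of features. For T cell, B cell and plasma cell markers 0 were called there. Neutrophils, macrophages and lymphocytes have clocks of their own, and the part of these cells in the differences below was not tested. In bulk samples a change in the share of a cell type and a change in RNA per cell cannot be told apart. The third library of intact blood stood apart from the other 2 (chi-square per degree of freedom of 427 and 560, against 59.1 between those 2), as did the third of resected blood (281 and 329 against 62.1), and, less so, the third of intact spleen (71.7 and 63.6 against 19.7), so results are also given without each of them. In resected spleen every pair of libraries was farther apart than any pair in intact spleen. The value was 129 between resected spleen 1 and 2, and resected spleen 3 lay at 186 and 205 from them. The p-values measure the spread between libraries of pooled mice.

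Nr1d1, which encodes REV-ERB alpha, showed the widest differences among the 10 genes. Its levels in intact spleen were 3.32, 5.22 and 8.92 CPM and after resection 55.9, 37.7 and 40.7 CPM. In blood they were 22.8, 15.8 and 11.6 CPM in intact mice and 148, 92.5 and 91.0 CPM after resection. The 4 groups did not overlap, and they stood in the order intact spleen, intact blood, resected spleen and resected blood. Nr1d1 rose 6.62-fold after resection in blood (log2 fold change 2.73, SE 0.39, 95% interval 1.85 to 3.61, adjusted p = 0.00217) and 7.69-fold in spleen (2.94, SE 0.40, 2.05 to 3.84, adjusted p = 0.0183). The blood value was 2.51 without the third intact library and 2.86 without the third resected one, and the call held with any 1 of the 12 libraries left out. The spleen call was lost (the log2 fold changes ran from 2.66 to 3.38 over all left-out libraries) without intact spleen 1, intact spleen 2 or resected spleen 3, and held without intact spleen 3 (3.38).

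Nr1d2, which encodes REV-ERB beta, followed Nr1d1 in direction in both tissues with smaller folds. Its levels in spleen were 44.0, 49.9 and 51.0 CPM in intact mice and 211, 121 and 95.2 CPM after resection. In blood they were 72.4, 61.3 and 41.7 CPM against 164, 137 and 122 CPM. Resected and intact libraries did not overlap in either tissue. The rise was 2.41-fold in blood (log2 fold change 1.27, SE 0.29, adjusted p = 0.0146) and 2.94-fold in spleen (1.56, SE 0.30, adjusted p = 0.0371). The blood value was 1.07 without the third intact library and 1.38 without the third resected one. The blood call was lost without resected blood 1 (adjusted p = 0.0523), and the spleen call was lost in 11 of the 12 fits that left out a library, the exception being that without intact blood 3, with log2 fold changes of 1.16 to 1.78 over the 12 (1.59 and adjusted p = 0.0782 without intact spleen 3). It was also lost with no filter on low counts and in a fit of the spleen groups alone.

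Per1, an immediate-response member of the period family, differed after resection in spleen. Its splenic libraries held 173, 142 and 194 CPM in intact mice and 1026, 502 and 523 CPM in resected mice, with no overlap. In blood it was read at 496, 277 and 255 CPM in intact mice and at 362, 279 and 294 CPM after resection, with the groups overlapping. Per1 rose 4.03-fold in spleen (log2 fold change 2.01, SE 0.34, adjusted p = 0.0262). The blood log2 fold change was -0.14 (SE 0.33, 95% interval -0.87 to 0.59, adjusted p = 0.803), and it turned to 0.27 without intact blood 1. The spleen call was lost in 7 of the 12 fits that left out a library, those without any 1 of the intact spleen libraries, resected spleen 3, resected blood 1 or 2, or intact blood 2. Adjusted p-values there ran from 0.0522 to 0.16, and log2 fold changes over all 12 fits from 1.60 to 2.19 (2.11 and adjusted p = 0.0554 without intact spleen 3).

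Per2, a core repressor of the loop, differed after resection in blood. Its levels in blood were 6.69, 8.25 and 11.2 CPM in intact mice and 21.7, 27.9 and 94.0 CPM after resection. In spleen they were 17.7, 18.9 and 18.5 CPM in intact mice and 24.5, 23.3 and 41.5 CPM after resection. The resected libraries lay above the intact ones in both tissues. Per2 rose 5.48-fold in blood (log2 fold change 2.45, SE 0.52, adjusted p = 0.00987), while the spleen value of 0.70 (SE 0.49, 95% interval -0.40 to 1.79) had an adjusted p of 0.457. The third resected blood library was far above the other 2, and without it the log2 fold change fell to 1.55 (adjusted p = 0.0103). Without intact blood 3 it was 2.67, and in a fit of the blood groups alone the call was lost (adjusted p = 0.0558).

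**Figure D1:**
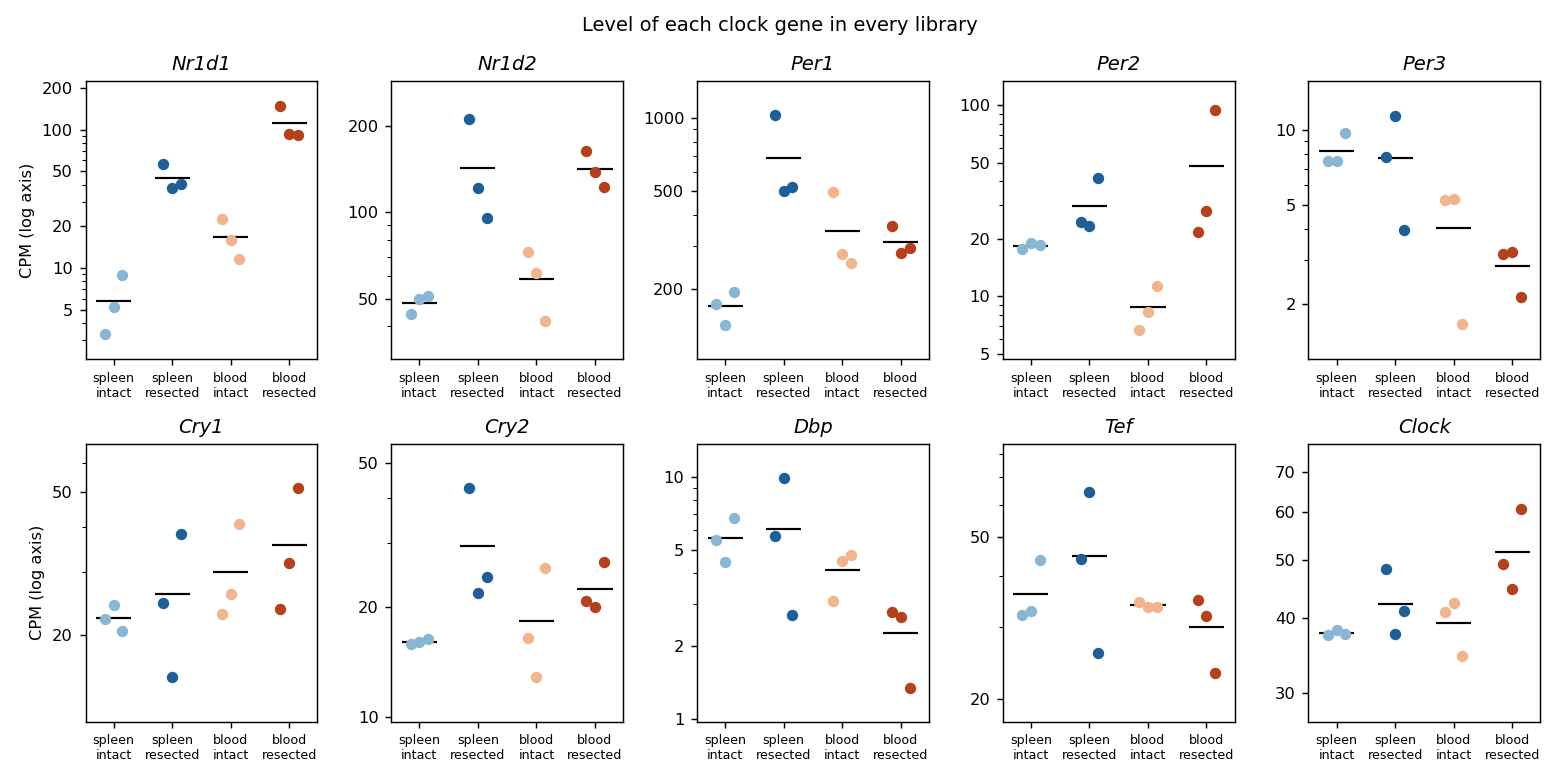
Level of each of the 10 clock genes in every library, in CPM on log axes that differ between panels, with points for the 3 libraries of each group and a bar at their mean. Nr1d1 lies at 3.32 to 8.92 CPM in intact spleen and 91.0 to 148 CPM in blood after resection, and the Per2 point at 94.0 CPM is the third library of resected blood.

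The remaining members were not called after resection in either tissue. Per3, a period gene that the loop can run without, was read at 7.51, 7.53 and 9.75 CPM in intact spleen and 7.82, 11.4 and 3.96 CPM after resection, and at 5.26, 5.27 and 1.66 CPM against 3.17, 3.23 and 2.14 CPM in blood. The groups overlapped within each tissue (log2 fold changes -0.10, SE 0.47, in spleen and -0.51, SE 0.48, in blood). Among the cryptochromes, the repressors that bind CLOCK and BMAL1, Cry1 ran from 15.2 to 51.3 CPM over all 12 libraries, with log2 fold changes of 0.22 (SE 0.37) in spleen and 0.25 (SE 0.37) in blood. Cry2 was read at 15.8, 16.1 and 16.3 CPM in intact spleen and 42.5, 21.9 and 24.2 CPM after resection. These libraries did not overlap, but the log2 fold change of 0.88 (SE 0.30) had an adjusted p of 0.135, and in blood the value was 0.30 (SE 0.30, adjusted p = 0.514).

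Dbp, an output factor with a strong daily swing in many tissues, had the fewest counts of the 10. In blood it was read at 3.08, 4.50 and 4.74 CPM in intact mice and 2.78, 2.65 and 1.35 CPM after resection. All resected libraries lay below the intact ones, and the log2 fold change of -0.86 (SE 0.47, 95% interval -1.90 to 0.17) had an adjusted p of 0.211. In spleen the levels of 5.49, 4.45 and 6.77 CPM and of 5.67, 9.89 and 2.68 CPM overlapped (0.13, SE 0.46). Tef, its relative, was read at 23.2 to 64.3 CPM in all libraries, with log2 fold changes of 0.30 (SE 0.29) in spleen and -0.18 (SE 0.29) in blood. Clock, the activator, had the steadiest level of the 10, at 34.6 to 60.7 CPM. Its blood libraries of 40.9, 42.4 and 34.6 CPM in intact mice and 49.2, 44.6 and 60.7 CPM after resection did not overlap, with a log2 fold change of 0.39 (SE 0.15, adjusted p = 0.0858), while in spleen the value was 0.16 (SE 0.15).

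Counted together, 3 of 10 members were called higher after resection and 0 lower in each tissue, with p-values of the edgeR test adjusted over all 20135 features. In blood they were Nr1d1, Nr1d2 and Per2, against 13.9% of all features called in either direction, 7.80% called higher and 6.11% called lower. In spleen they were Nr1d1, Nr1d2 and Per1, against 1.38% of features called, 0.780% higher and 0.601% lower. At an unadjusted p under 0.05, 4 members passed in blood and 4 in spleen, where 35.9% and 20.8% of all features did. In blood all resected libraries lay above the intact ones for 4 members (Nr1d1, Nr1d2, Per2 and Clock), against 19.4% of all features, and below them for 1 (Dbp), against 19.0%. In spleen they lay above for 5 members (Nr1d1, Nr1d2, Per1, Per2 and Cry2), against 17.4% of features. The median log2 fold change of the members was 0.27 in blood, where it was -0.10 over all features, and 0.50 in spleen, where it was 0.05.

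**Figure D2:**
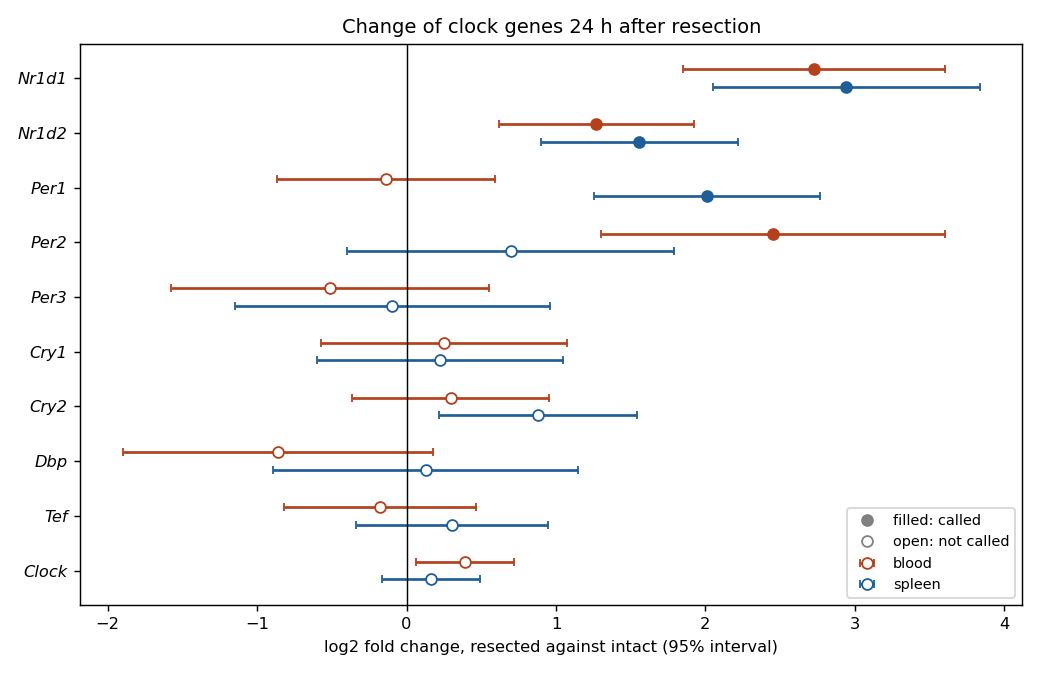
Log2 fold change of each clock gene 24 h after resection against intact mice, with its 95% interval, in blood (red) and spleen (blue); filled points were called. Nr1d1 lies near 3 in both tissues (2.73 and 2.94), while Per1 lies at -0.14 in blood and 2.01 in spleen.

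Whether the resection effect differed between the tissues was tested as an interaction. None of the 10 members was called in edgeR, where 0.283% of features were, and 2 members had an unadjusted p under 0.05, as did 17.3% of features. DESeq2, which called 1150 of 18611 features here, called 1 member. That member was Per1, whose effect in blood lay 2.15 below that in spleen on the log2 scale (SE 0.47, 95% interval of the difference -3.19 to -1.11, unadjusted p = 0.000966, adjusted p = 0.0909 in edgeR and 0.000852 in DESeq2). For Per2 the effect in blood lay 1.76 above that in spleen (SE 0.70, interval 0.20 to 3.31, unadjusted p = 0.0303, adjusted p = 0.244), and 0.86 above it without resected blood 3. For Nr1d1 the difference was -0.22 (interval -1.39 to 0.95) and for Nr1d2 -0.29 (interval -1.20 to 0.62). Both intervals reach beyond a log2 difference of 1.

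Averaged over blood and spleen, 3 members were called higher and 0 lower, against 12.1% of features called in either direction, 7.46% higher and 4.68% lower. Nr1d1 rose by 2.84 (SE 0.28, adjusted p = 0.000364), Nr1d2 by 1.41 (SE 0.21, adjusted p = 0.00177) and Per2 by 1.58 (SE 0.35, adjusted p = 0.0108). All 3 calls held with any 1 library left out. Per1 passed the adjusted p but stayed under the fold limit, at 0.94 (SE 0.23, adjusted p = 0.0168), where 24.7% of features passed the adjusted p alone. Cry2 at 0.59 (adjusted p = 0.0667), Clock at 0.28 (adjusted p = 0.0785) and the other 4 members did not pass.

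Blood and splenic monocytes were also compared with each other, and the part of their different preparation in these values was not tested. In intact mice 1 member was called, higher in blood, against 7.35% of features called in either direction and 3.86% called higher: Nr1d1 was 2.87-fold higher in blood (log2 fold change 1.52, SE 0.38, adjusted p = 0.0369; 1.83 without intact blood 3). That call was lost in 5 of the 12 fits with a library left out (intact spleen 1 or 2, intact blood 1 or 2, or resected blood 2), with values of 1.29 to 2.06 over the 12, and also in a fit of the intact groups alone. Per1 lay higher in blood without overlap, at 1.02 (SE 0.33, adjusted p = 0.0858), so that 2 members lay wholly above spleen, as did 13.6% of features. Per2 and Per3 lay wholly below spleen, as did 20.9% of features, with values of -1.07 (SE 0.50, adjusted p = 0.211) and -1.03 (SE 0.48, adjusted p = 0.214).

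After resection 2 members were called between the tissues, against 13.1% of features in either direction, 6.28% higher and 6.86% lower in blood. Nr1d1 was 2.47-fold higher in blood (log2 fold change 1.30, SE 0.38, adjusted p = 0.0374) and Per1 2.20-fold lower (-1.13, SE 0.33, adjusted p = 0.0391), both without overlap. Neither call held without resected blood 3, where the values were 1.53 for Nr1d1 (adjusted p = 0.0539) and -0.99 for Per1 (adjusted p = 0.16). Nr1d1 lost its call without any 1 of the 6 resected libraries (1.13 to 1.59 over all 12 left out in turn). Per1 lost its call in 9 of the 12 fits, all but those without resected spleen 3, intact blood 1 or intact blood 3 (-1.22 to -0.62 over the 12), and in 5 other settings, scaling by RLE among them. Per1, which had the higher libraries in blood of intact mice, had the higher ones in spleen after resection, and its difference between these 2 states is the interaction given above. Per3 also lay lower in blood without overlap (-1.44, SE 0.49, adjusted p = 0.0634). Over all features 17.2% lay wholly above spleen in blood and 25.1% wholly below it. Dbp was at -1.43 (SE 0.47, adjusted p = 0.0592). For Nr1d2 the value of -0.01 (SE 0.29) turned positive under other scalings. RLE scaling moved the median of all features by 0.11 in this comparison, and leaving out haemoglobin genes moved it by 0.12.

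**Figure D3:**
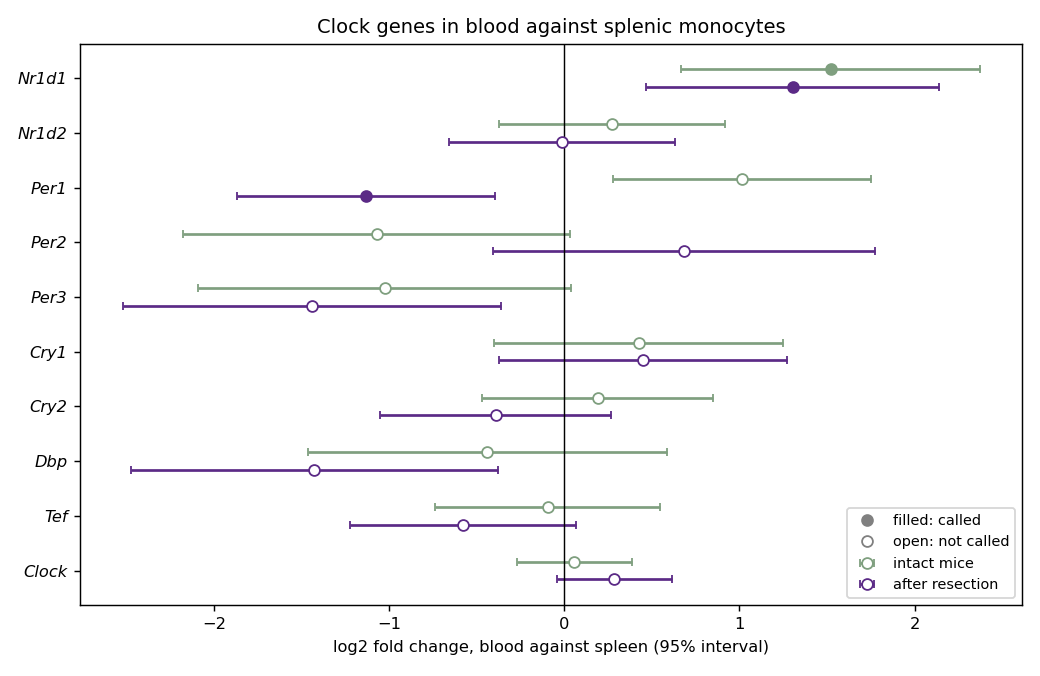
Log2 fold change of each clock gene in blood against spleen, with its 95% interval, in intact mice (green) and after resection (purple); filled points were called. Nr1d1 lies at 1.52 and 1.30, while Per1 lies at 1.02 in intact mice and at -1.13 after resection.

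Across the 12 libraries Nr1d1 had the largest standard deviation of log2 CPM, 1.73, followed by Per2 at 1.01, and Clock had the smallest, 0.23. As a description of which profiles ran alike, the root mean square difference of log2 CPM, each gene centred on its mean, was taken between genes over the 12 libraries. Between members it was smallest for Cry2 and Clock (0.41), Cry1 and Clock (0.42) and Dbp and Tef (0.45), and flat profiles give small values by themselves. Outside the list, the feature most like Nr1d1 was Maff (0.58), a small MAF transcription factor, and the one most like Nr1d2 was Prr7 (0.25). For the period genes they were Iba57 for Per1 (0.34), Gm31619 for Per2 (0.36) and Lmo2 for Per3 (0.23). Gk5 was nearest to Cry1 (0.23), Naf1 to Cry2 (0.20), P2rx3 to Dbp (0.28), Osgep to Tef (0.16) and Trappc10 to Clock (0.10).

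**Figure D4:**
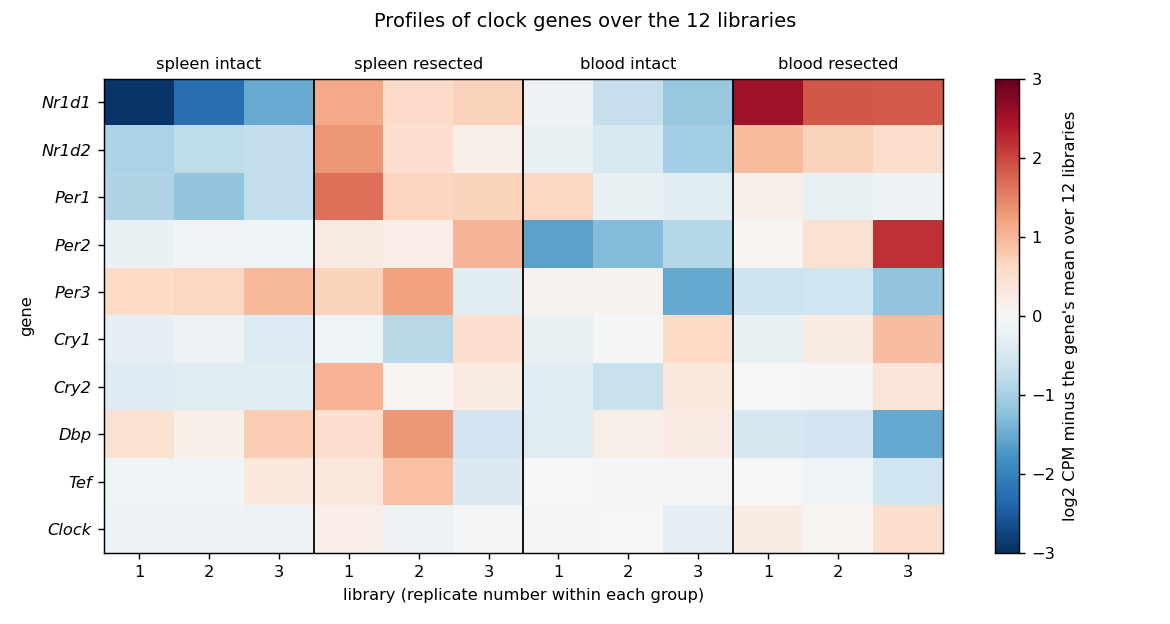
Profiles of the 10 clock genes over the 12 libraries, as log2 CPM minus the mean of the gene, from blue (below its mean) to red (above it). Nr1d1, with a standard deviation of 1.73, is low in all intact spleen libraries and high in all resected blood libraries, while Clock, at 0.23, hardly varies in colour.

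Of the members, 4 share exon bases with a gene on the opposite strand. The library kit kept the strand, but whether the counting used it was not given in the sources used here, so reads of such pairs may not be told apart. For Nr1d1 the partner is Thra, the thyroid hormone receptor alpha gene, which covers 9.67% of its exon bases. Thra had log2 fold changes of -1.04 (SE 0.32, adjusted p = 0.041) after resection in blood and 0.69 (SE 0.31, adjusted p = 0.25) in spleen. In blood against spleen it was at 1.74 (SE 0.32, adjusted p = 0.0116) in intact mice, where Nr1d1 was at 1.52, and at 0.01 (SE 0.31, adjusted p = 0.987) after resection, where Nr1d1 was at 1.30. The part of shared reads in these values was not tested. Sphk2, a sphingosine kinase gene, covers 29.3% of the exon bases of Dbp and was read at 46.3 to 90.7 CPM, with values of 0.45 (adjusted p = 0.103) in blood and -0.03 (adjusted p = 0.952) in spleen. The overlap was 3.43% for Cry2 and 4.1% for Tef, with partners under 0.43 CPM in every library.

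The rest of the clock was followed through 20 further genes, of which 19 passed the filter and Rorb was at 0. After resection in blood 2 of the 19 were called higher and 0 lower, where 7.80% and 6.11% of all features were, and the median log2 fold change was -0.03 (-0.10 over all features). They were Bhlhe40 (DEC1), an E-box repressor, at 2.25 (SE 0.52, adjusted p = 0.0144), and Usp2, a deubiquitinase under clock control, at 1.69 (SE 0.39, adjusted p = 0.0132). Nampt, a rate-limiting enzyme of NAD synthesis, at 0.98 (adjusted p = 0.0132) passed the adjusted p but not the fold limit. The calls of Bhlhe40 and Usp2 held with any 1 library left out, at 1.85 to 2.57 for Bhlhe40 and 1.52 to 2.20 for Usp2, and that of Usp2 was lost in a fit of the blood groups alone (adjusted p = 0.0566). In spleen 0 of the 19 were called in edgeR and 5 had an unadjusted p under 0.05, where 1.38% and 20.8% of all features did. The median there was 0.66 (0.05 over all features), and the values were 1.87 for Bhlhe40 (SE 0.51, adjusted p = 0.0858) and 1.70 for Usp2 (SE 0.38, adjusted p = 0.0525). Averaged over the tissues 3 were called higher and 0 lower, against 7.46% and 4.68% of features: Bhlhe40 at 2.06 (adjusted p = 0.00379), Usp2 at 1.70 (adjusted p = 0.00237) and Bhlhe41 (DEC2) at 1.18 (adjusted p = 0.0421). The Bhlhe41 call was lost with any 1 library left out other than intact spleen 3 or intact blood 2 (0.99 to 1.49 over the 12), and with no filter on low counts. None of the 19 was called for a difference of the effect between the tissues, and 3 had an unadjusted p under 0.05, against 0.283% and 17.3% of features.

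Bhlhe40 was read at 130, 132 and 290 CPM in intact spleen and 999, 467 and 554 CPM after resection, and at 230, 212 and 62.4 CPM against 676, 880 and 853 CPM in blood. Intact and resected libraries did not overlap in either tissue. Bhlhe41 was read at 16.2, 16.8 and 37.6 CPM in intact spleen against 119, 65.2 and 83.0 CPM, also without overlap, while in blood its libraries overlapped (0.44, SE 0.52). Ciart (CHRONO), another repressor of the CLOCK and BMAL1 pair, was read at 4.59, 3.21 and 21.8 CPM in intact spleen and ran from 20.3 to 82.7 CPM after resection, with an overlap at the third intact library (2.24, SE 0.75, adjusted p = 0.133). In blood it stayed between 2.08 and 5.16 CPM in all 6 libraries.

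Arntl, the partner of Clock and the gene that REV-ERB proteins repress, was not called in any comparison. Its levels were 18.2, 16.8 and 15.9 CPM in intact spleen and 20.3, 9.41 and 10.5 CPM after resection (log2 fold change -0.34, SE 0.36, 95% interval -1.13 to 0.45). In blood they were 14.6, 9.87 and 5.79 CPM and 12.2, 13.3 and 16.1 CPM (0.46, SE 0.36, interval -0.33 to 1.26). The groups overlapped in both tissues, and both intervals reach beyond a log2 fold change of 1. Npas2, which can stand in for Clock, was near the counting floor at 0.0835 to 0.523 CPM (a floor of 3 counts came to 0.0626 to 0.102 CPM per library). Its log2 fold changes were -1.12 (SE 0.54) in blood and 0.74 (SE 0.55) in spleen. Hlf, the third PAR bZIP gene, lay at 0.131 to 0.957 CPM, with values of 0.85 (SE 0.60) in blood and 0.57 (SE 0.60) in spleen. Nfil3 lay at 43.1 to 174 CPM, with values of -0.37 (SE 0.47) in blood and 0.73 (SE 0.47) in spleen. None of these 3 genes was called after resection in either tissue.

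**Figure D5:**
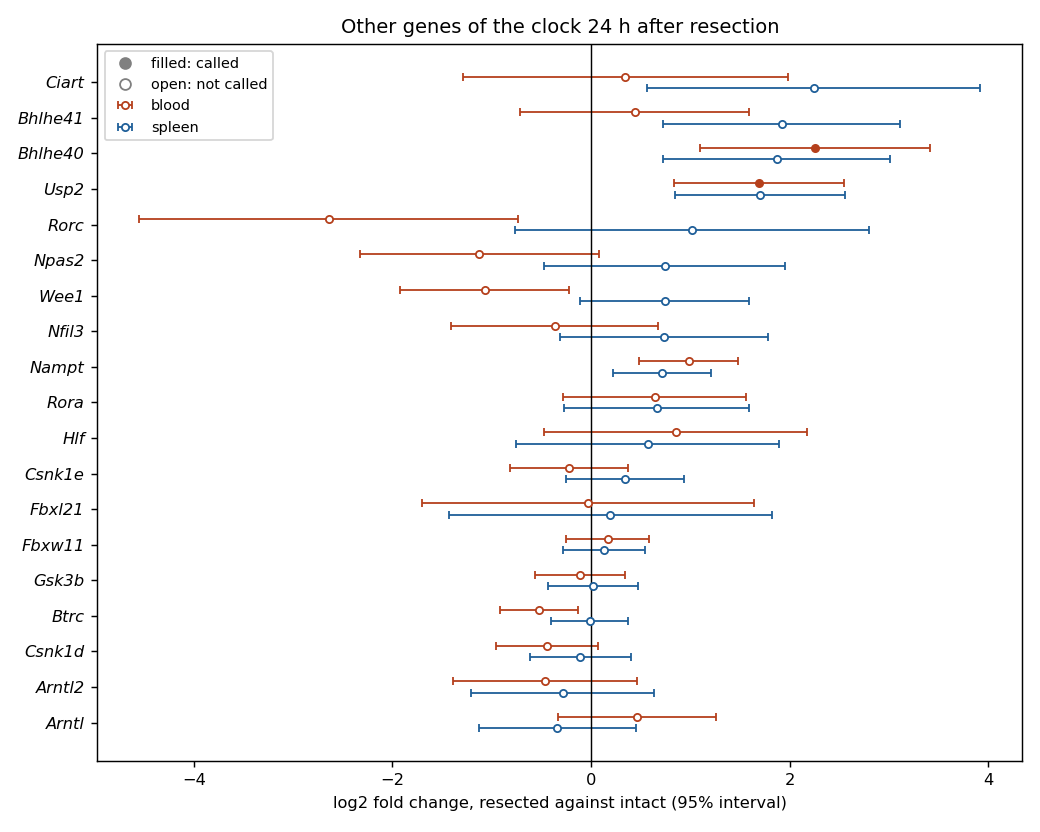
Log2 fold change of the 19 other clock genes that passed the filter, 24 h after resection against intact mice, with 95% intervals, in blood (red) and spleen (blue); filled points were called. Bhlhe40 (2.25) and Usp2 (1.69) are filled in blood, and Arntl lies at 0.46 in blood and -0.34 in spleen with both intervals across 0.

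Between the tissues, Rora, an activator at the RORE, was higher in blood in both states, with log2 fold changes of 1.84 (SE 0.43, adjusted p = 0.0277) in intact mice and 1.82 (SE 0.43, adjusted p = 0.0168) after resection. The first call was lost without any 1 of the intact spleen libraries, intact blood 1 or intact blood 2 (1.52 to 2.25 over the 12 libraries left out in turn) and in a fit of the intact groups alone, and the second without resected spleen 1 (1.94, adjusted p = 0.0507). Its levels were 4.36 to 5.19 CPM in intact spleen and 9.59 to 25.7 CPM in intact blood, and 3.76 to 11.5 CPM against 22.0 to 31.1 CPM after resection, without overlap. Rora is also expressed in T cells, and that part was not tested. T cell markers summed to 710 to 2263 CPM in intact blood against 174 to 321 CPM in intact spleen. After resection they summed to 126 to 253 CPM in blood against 79.1 to 110 CPM in spleen. In intact mice Wee1, a mitotic kinase gene under clock control, was the other 1 of 2 called higher in blood, at 1.71 (SE 0.39, adjusted p = 0.0259), and 0 were called lower. Of all features 3.86% were called higher there, and the Wee1 call was lost without any 1 of the intact spleen libraries (1.35 to 2.00 over the 12) and in a fit of the intact groups alone. After resection 1 was called higher (Rora) and 2 lower in blood, against 6.28% and 6.86% of features: Ciart at -3.48 (SE 0.80, adjusted p = 0.0156) and Btrc, a ubiquitin ligase gene that acts on PER proteins, at -1.04 (SE 0.18, adjusted p = 0.00439). The Ciart call was lost without resected spleen 1 (-2.68), resected blood 2 (-3.47) or resected blood 3 (-3.15). Btrc kept an adjusted p under 0.05 but dropped inside the fold limit in 9 of the 12 fits, all but those without resected spleen 1, resected spleen 3 or resected blood 2 (-1.05 to -0.80 over the 12), and with RLE factors (-0.93).

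A further list of 6 myeloid genes tied to the clock held 5 that passed the filter, all of them genes that other processes also drive. In blood after resection 4 were called higher and 1 lower, where 7.80% and 6.11% of all features were. They were the chemokine gene Ccl2 at 5.42 (SE 0.93), Il6 at 5.56 (SE 0.75), the protease gene Mmp9 at 4.01 (SE 0.74) and S100a8 at 5.97 (SE 0.94), and Cx3cr1, the fractalkine receptor of patrolling monocytes, was called lower at -2.20 (SE 0.53). The adjusted p-values ran from 0.00161 to 0.0165, and the Cx3cr1 call was lost without resected blood 2 (-2.33) or resected blood 3 (-1.93). In spleen 0 of the 5 were called in edgeR and 3 had an unadjusted p under 0.05, against 1.38% and 20.8% of features. Those 3 were Cx3cr1 at -2.22 (SE 0.53, adjusted p = 0.0604), Mmp9 at 3.00 (SE 0.71, adjusted p = 0.0604) and S100a8 at 3.03 (SE 0.82, adjusted p = 0.0843). Ccl2 was at 0.59 (SE 0.78) and Il6 at 0.20 (SE 0.81) in spleen. S100a8 and Mmp9 are abundant in neutrophils, whose 8 markers were all called higher in blood after resection, and 2 of them in spleen; the part of those cells was not tested.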

How the data were processed

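Each library came as 1 file of estimated counts over 67088 entries, as the authors deposited it. The submitters' processing notes name STAR and the GRCm39 build, and the counter and annotation were not given in the sources used here. Entries without a gene (1.75 to 4.33% of counts) were left out, entries of a gene were summed and the estimated counts were rounded. The 20135 features kept by filterByExpr were fitted in edgeR 4.0.16 under R 4.3.3 with TMM factors (0.661 to 1.26), the quasi-likelihood test over all 12 libraries and 4 groups, and Benjamini-Hochberg adjustment. DESeq2 1.42.0, RLE factors, other filters, the replicate number as a block, unsummed entries, tables without haemoglobin genes, fits of 2 groups and left-out libraries were the alternatives. The scripts were tested on simulated data. Members and gene lists were chosen with earlier results of these data known, and genes sharing exons (GENCODE M21) were looked up after the values were seen. Named were all members, a fixed set of other clock genes, every listed gene called in a comparison described for its list, and the nearest profile of each member. The myeloid list was described only for resection within each tissue. A gene of the wider clock list is not reported here.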

Additional observations from a re-analysis of the deposited data

How the results depend on the processing

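With 3 pooled libraries a group, the calls in spleen depended on single libraries more than those in blood. Each member was recomputed under 21 settings, 12 of which left out a library. Of 1240 gene values 1126 kept their direction and call, 53 lost a call, 15 gained one and 46 changed sign, and none of the 249 recomputed values of the 12 called results changed sign. The cause was not tested for any of these. Counts of called members moved as follows. For resection in spleen the main count of 3 ran from 0 to 3 over left-out libraries (0 without intact spleen 1, intact spleen 2 or resected spleen 3, and 1 without intact spleen 3, resected blood 1, resected blood 2 or intact blood 2). For the difference between tissues 0 became 1 in DESeq2. For intact blood against spleen 1 became 2 in DESeq2, 0 with the replicate block, 0 in a fit of the 2 groups and 0 to 2 over left-out libraries. For blood against spleen after resection 2 became 4 in DESeq2, where 3627 of 19767 features were called. The count became 1 with RLE factors, no filter, the replicate block, unsummed entries, no haemoglobin genes or a fit of the 2 groups, and 0 to 3 over left-out libraries.

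All values that changed sign were uncalled in their own comparison. Some of them belong to genes called in another comparison (Per1, Per2, Nr1d1 and Nr1d2). Dbp in spleen was -0.00393 with the replicate block, and Tef in intact blood against spleen was 0.0207 without haemoglobin genes. Nr1d2 in blood against spleen after resection was 0.0955 with RLE factors and in DESeq2, 0.066 with no filter, 0.00715 with at least 10 counts in every library, 0.0359 with the replicate block, 0.0899 with unsummed entries, 0.0993 without haemoglobin genes and 0.0514 in a fit of the 2 groups. Over left-out libraries, log2 fold changes after resection in blood ran from -0.32 to 0.27 for Per1, -0.071 to 0.53 for Cry1 and -0.28 to 0.00396 for Tef. In spleen they ran from -0.49 to 0.22 for Per3, -0.16 to 0.50 for Cry1, -0.41 to 0.49 for Dbp and -0.0511 to 0.58 for Tef, and averaged from -0.12 to 0.20 for Tef. For the difference between tissues they ran from -0.28 to 0.41 for Cry1, -0.66 to 0.11 for Nr1d1 and -0.51 to 0.10 for Nr1d2. In intact blood against spleen they ran from -0.0263 to 0.44 for Cry2 and -0.0744 to 0.16 for Tef, and after resection from -0.15 to 1.12 for Per2, -0.47 to 0.0608 for Cry2 and -0.14 to 0.48 for Nr1d2.

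No label tied a replicate number to a shared animal or day, and whether the numbers pair the libraries was not settled. Between groups, the deviations of the 18 same-numbered pairs correlated from -0.0461 to 0.189. Those of other pairs ran from -0.186 to 0.0887, and 7 of 12 libraries correlated best with their own number. With the replicate block 3 members were called after resection in each tissue, 0 in intact blood against spleen and 1 (Per1) in blood against spleen after resection. Nr1d1 was then not called between the tissues in edgeR (adjusted p = 0.0705 in intact mice and 0.0593 after resection). Features called in all differed too. For resection in spleen 278 became 1564 in DESeq2, 101 with no filter, 489 with at least 10 counts, 150 with the replicate block and 1 to 1028 over left-out libraries. For resection in blood 2801 became 1590 in a fit of the 2 groups and 1633 to 2814 over left-out libraries. For the difference between tissues 57 became 1150 in DESeq2, 22 with no filter, 99 with at least 10 counts 1 with the replicate block and 5 to 93 over left-out libraries. For intact blood against spleen 1480 became 2569 in DESeq2, 796 in a fit of the 2 groups and 531 to 1494 over left-out libraries. For blood against spleen after resection 2646 became 3627 in DESeq2 and 1450 to 3623 over left-out libraries. The shares of all features given beside counts of members move with these totals. Dbp and Per3, with 48 to 523 counts in a library, were the members most limited by depth.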
